A study of Homo sapiens with 12 samples.

Results

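CNTNAP2 (ENSG00000174469) lies on the plus strand of chromosome 7, and its outermost transcripts in the deposited annotation run from 146116948 to 148416675 (hg38), 2300 kb in all. The peaks described here were chosen by the authors' own peak calls, as every region of trimethylated lysine 9 of histone H3 (H3K9me3) that the deposited lists assigned to CNTNAP2 by name or that overlapped this span. Both criteria gave the same 150 peaks, 70 in the wild-type (WT) list and 80 in the knockout (KO) list, out of 46898 and 65170 peaks in all. The cells were 293T, a line from human embryonic kidney that carries the SV40 large T antigen, either WT or with a knockout of SMARCA3 (current symbol HLTF), a SWI/SNF-related DNA translocase. The labels list 12 libraries, 3 anti-H3K9me3 ChIP and 3 input libraries per genotype, described as biological triplicates and with no treatment. They do not say whether the knockout is 1 clone. The lists hold 1 value per peak and no value per library, so differences between the lists have no replicate check and no test, and the depth of each library is unknown here.

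CNTNAP2 encodes CASPR2, a transmembrane cell adhesion protein of the neurexin superfamily. In neurons it helps to gather Kv1 potassium channels beside the nodes of Ranvier of myelinated axons, and antibodies against it or variants in its gene are known from neurological disease. It is one of the longest human genes and is best known for its expression in brain. H3K9me3 is a mark of constitutive heterochromatin that is bound by HP1 proteins and is common over repeats and silent genes. The lists do not measure expression, and whether CNTNAP2 was transcribed in these cells was not analysed here.

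The start of the gene carried no peak in either list, and its promoter is therefore shown first. RefSeq starts the gene at 146116801, upstream of the 146116948 of the deposited annotation from which distances to the gene start are counted. The 300 bases from 250 before to 50 after the RefSeq start (GRCh38.p14, chr7:146116551-146116850, plus strand), read as follows, with each CG dinucleotide in capitals.

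CNTNAP2 promoter: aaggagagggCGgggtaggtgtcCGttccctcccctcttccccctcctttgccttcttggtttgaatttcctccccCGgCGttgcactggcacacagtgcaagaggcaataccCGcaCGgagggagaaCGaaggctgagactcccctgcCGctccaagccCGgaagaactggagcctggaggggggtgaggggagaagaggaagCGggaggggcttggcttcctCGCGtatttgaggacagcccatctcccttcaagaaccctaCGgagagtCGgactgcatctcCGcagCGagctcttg

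This window holds 16 CG dinucleotides, a motif that reads the same on either strand, and 61.7% of its bases are G or C. Of 35116 promoter windows of the same length in that table, 47.5% held at least 16, and the median was 14. No WT or KO peak overlapped the window, and the share of all such windows with a peak is not given here. The peak nearest to the transcript start was called in both lists, 80950 bp downstream in WT (146197899 to 146198353, fold enrichment 3.56) and 80949 bp downstream in KO (146197898 to 146198169, fold 3.51). On the other side of the start, the next peak lay 90.1 kb upstream in WT and 260.6 kb upstream in KO.

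Other transcript starts inside the gene were also free of peaks. The lists named 10 CNTNAP2 transcripts, and none of their starts was overlapped by a peak. Peaks covered 2.09% of the gene in WT and 2.56% in KO, so so few single positions would seldom meet one. The count therefore cannot show that starts are spared. The closest approach was in WT, where a peak of fold 3.45 (146916976 to 146917497) began 1128 bp beyond the start of transcript ENST00000637555 at 146915847. It is the single member that the authors classed as promoter, within 3 kb of a start, and no KO peak lay within 34598 bp of that start. The other 69 WT peaks and all 80 KO peaks were of the gene-body class, which does not separate exons from introns. RefSeq places 12 further genes or pseudogenes within or across the span, among them CNTNAP2-AS1, a noncoding antisense gene, and MIR548F4, a microRNA gene, and no peak of either list overlapped any of the 12. The pseudogene DUTP3 came closest, 2710 bp from a WT peak and 2250 bp from a KO peak. The share of all genes of such lengths that hold a peak is not given here, so no avoidance can be read from the 12.

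Peaks were unevenly spread along the body of the gene, and the fullest clusters held peaks of both lists. The longest stretch without a peak of either list was the 3' end, from 148144651 to the end of the gene, 272.0 kb. The next longest ran from 146997682 to 147110875 and from 147694754 to 147805472, 113.2 and 110.7 kb. When peaks of both lists were joined across gaps of up to 10 kb, they formed 46 clusters, of which 31 held peaks of both lists, 8 held WT peaks alone and 7 held KO peaks alone. The 6 clusters with at least 6 peaks covered 3.74% of the gene and held 30 of 70 WT peaks (42.9%) and 32 of 80 KO peaks (40%). They were chosen for holding many peaks of the joined lists, so these high shares are in part built in. The cluster with the most peaks spanned 146786663 to 146824349, 37.7 kb, with 9 WT and 10 KO peaks and 6730 and 6612 covered bases. Another spanned 146489573 to 146516282, 26.7 kb, with 9 and 8 peaks and 7570 and 10509 bases. The other 4 clusters of this size were each under 6 kb long.

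**Figure D1:**
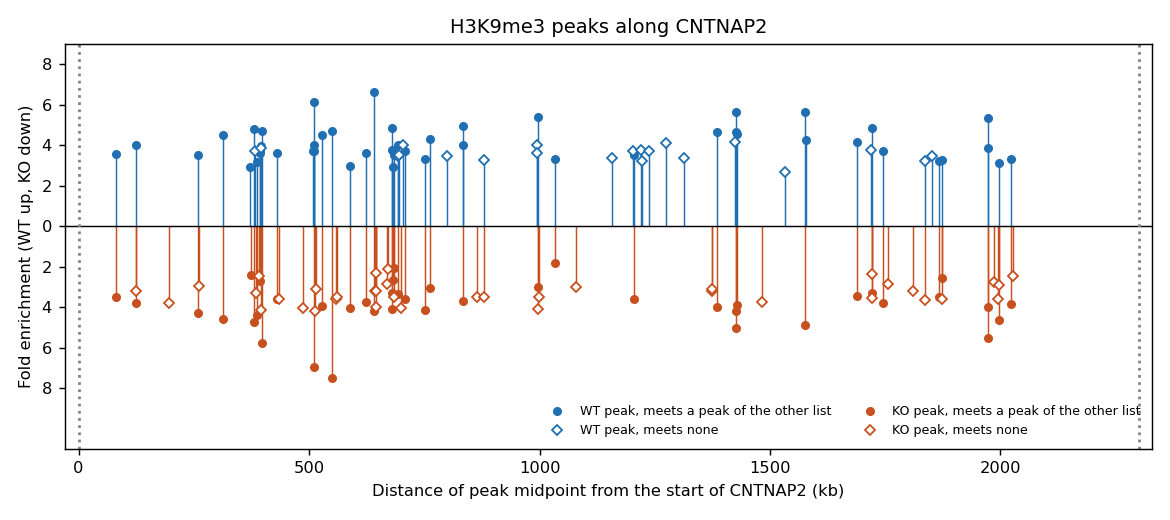
Fold enrichment of each H3K9me3 peak (vertical axis, WT upward and KO downward) against the distance of its midpoint from the start of CNTNAP2 in kb, with filled circles for peaks that meet a peak of the other list, open diamonds for those that meet none, and dotted lines at the ends of the gene. Neither list has a peak in the first 80.9 kb or the last 272.0 kb, and 5 WT peaks between 1204 and 1374 kb face no KO peak.

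Peaks at CNTNAP2 had folds near those of the whole lists and lower median widths, more so in KO. Peak width had a median of 462 bp in WT (265 to 2263 bp) and 439 bp in KO (271 to 3109 bp), beside 483 and 530 bp over the whole lists. The KO median was thus below the WT median at the gene and above it over the whole lists, a difference that was not tested. Of the WT peaks 14 (20%) and of the KO peaks 18 (22.5%) exceeded 1 kb, beside 18.0% and 22.8% of each whole list. Fold enrichment, the authors' ratio per peak whose background the files do not define, had a median of 3.72 in WT (2.68 to 6.61) and 3.58 in KO (1.83 to 7.53), beside 3.77 and 3.59. The lowest fold listed at CNTNAP2 was 2.68 in WT and 1.83 in KO. The absence of a peak from 1 list does not show an unmarked site.

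Most of the strongest and widest peaks lay toward the 5' end of the gene. In WT the highest fold was 6.61, at a peak of 1676 bp from 146757495 to 146759170, followed by 6.13 at 146626525 to 146627449. The third place was tied at 5.66 between 147542285 to 147543188 and 147692805 to 147694302, both farther downstream. In KO the highest fold was 7.53, at a peak of 3049 bp from 146666255 to 146669303, where the matching WT peak of 2060 bp had a fold of 4.71. The next KO peaks had folds of 6.96 (146625583 to 146628258) and 5.75 (146513704 to 146515919). Conversely, the strongest WT peak faced a KO peak of 2664 bp with a fold of 4.17. The widest WT peak, of 2263 bp, lay at 146514020 to 146516282, and the 2060 bp peak just named and one of 2040 bp at 147113352 to 147115391 came next. The widest KO peak measured 3109 bp, from 146508966 to 146512074, and met 3 separate WT peaks there. The KO peak from 146625583 likewise met 4 WT peaks, so that fewer KO than WT peaks can stand for more marked bases.

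The KO list held more peaks and more covered bases at CNTNAP2, as over the whole lists. Peak numbers stood at a KO to WT ratio of 1.14 (80 against 70, exact binomial 95% interval 0.819 to 1.60), and the ratio of covered bases was 1.22 (58912 against 48166). Peaks covered 2.09% of the gene in WT and 2.56% in KO, with a mean width of 688 and 736 bp. Over the whole lists the ratio was 1.39 for peaks, inside the interval at CNTNAP2, and 1.59 for bases. On the rest of chromosome 7 the ratio of peaks was 1.69 (4396 against 2601, 1.61 to 1.77), and 1.53 (1.45 to 1.61) when the block beside the centromere from 61 to 65 Mb was also left out. The counting interval at CNTNAP2 does not reach 1.69 and reaches 1.53. It covers the counting of peaks only and treats peaks as independent, and the difference between the gene and the chromosome was not tested. The direction turned with the length of the lists. With as many KO as WT peaks in all, taken by q-value, CNTNAP2 had 55 KO peaks (ratio 0.786) and 47759 KO bases (0.992), and taken by fold, 54 peaks (0.771) and 42632 bases (0.885).

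The regions beside the gene differed in density. In the 1 Mb before the gene there were 11 WT and 12 KO peaks, 1.10 and 1.20 per 100 kb, against 3.04 and 3.48 per 100 kb within CNTNAP2. In the 1 Mb after it there were 31 and 39, 3.10 and 3.90 per 100 kb. The first peaks beyond the 3' end lay 75.7 kb away in WT (fold 3.17) and 75.5 kb away in KO (fold 4.09). Of the genes downstream, C7orf33 had 1 and 2 peaks, CUL1, which encodes a cullin scaffold of ubiquitin ligases, had 2 in each, and EZH2, the gene of the H3K27 methyltransferase, had 0 in each.

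Along CNTNAP2 the balance between the lists changed, with more KO bases in the first part, more WT bases past the middle and more KO bases again near the 3' end. The gene was divided into 4 parts of equal length, 575 kb each. In the first there were 20 WT and 25 KO peaks and 14758 and 24238 covered bases, a ratio of bases of 1.64. The second had 22 and 27 peaks and 16010 and 18833 bases, a ratio of 1.18. The third had 19 WT and 13 KO peaks and 12638 and 8223 bases, a ratio of 0.651. The fourth had 9 and 15 peaks and 4760 and 7618 bases, a ratio of 1.60. Over the whole lists the ratio of bases was 1.59, near that of the first and the fourth part. For peaks, the counting intervals of the ratio included 1 in each of the 4 (0.667 to 2.37, 0.673 to 2.26, 0.311 to 1.46 and 0.683 to 4.32). Each also included the 1.39 of the whole lists, and the differences between the parts were not tested. The ratio of bases stayed above 1 in the first and the fourth and below 1 in the third under the 4 other choices of peaks tried, and fell below 1 in the second under 3 of them.

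In bins of 100 kb from the start of the gene, 21 of 23 bins held a peak. Of these, 11 (52.4%) had more KO than WT bases and 10 had more WT bases, whereas 78.0% of all 100 kb windows with a peak on chromosomes 1 to 22 and X had more KO bases. The bins with the largest KO excess were those from 500 to 600 kb (5056 bases in WT, 9173 in KO), 300 to 400 kb (8925 and 11938) and 600 to 700 kb (8252 and 10954). These 3 bins are also the ones with the most covered bases in each list. The largest WT excess was from 1200 to 1300 kb, with 6 WT peaks and 1 KO peak and 3325 and 531 bases. The next were from 1500 to 1600 kb (2181 and 1434 bases) and 800 to 900 kb (2242 and 1560). The bin from 1100 to 1200 kb had 1 WT peak and no KO peak.

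**Figure D2:**
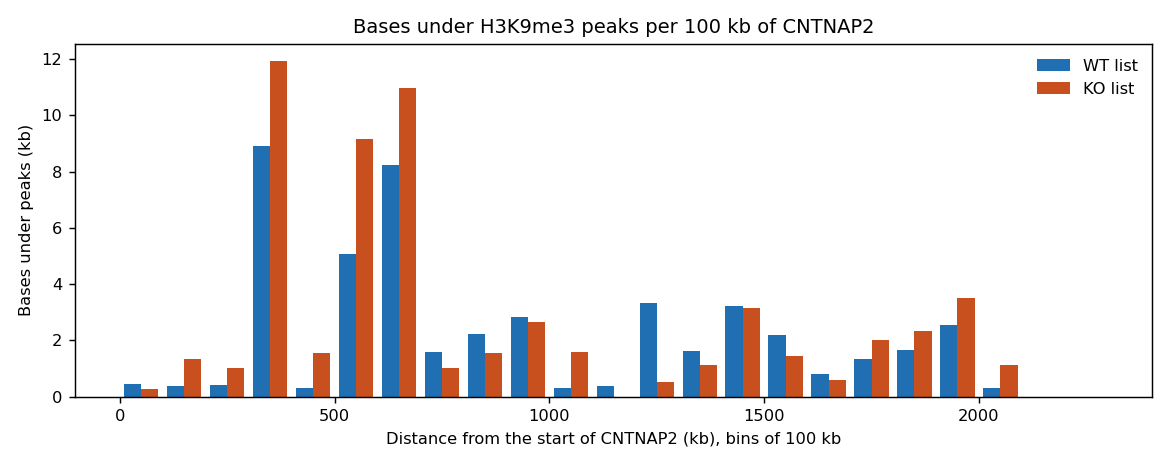
Bases under WT (blue) and KO (orange) peaks in kb for each bin of 100 kb along CNTNAP2, by distance from the start of the gene in kb. KO bars are the taller ones in the 3 fullest bins (300 to 400, 500 to 600 and 600 to 700 kb), the WT bar is far taller from 1200 to 1300 kb, and the last 2 bins are empty in both lists.

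Most WT peaks at CNTNAP2 had a KO counterpart, and about as many KO peaks had a WT counterpart as had none. Of 70 WT peaks, 49 met a KO peak by at least 1 bp (70.0%, Wilson 95% interval 58.5 to 79.5), and of 80 KO peaks, 42 met a WT peak (52.5%, 41.7 to 63.1). The 21 WT-only peaks made up 30.0% of the WT peaks here, against 20.1% of all WT peaks on the chromosomes. The 38 KO-only peaks made up 47.5%, against 49.4% of all KO peaks. The KO share lies near that of the whole list, and its Wilson interval includes it. The WT share of shared peaks is lower than that of the whole list, which lies just above the upper end of the Wilson interval. That interval treats peaks as independent, and the difference was not tested. One-list peaks were narrower and weaker than shared ones. The median width was 371 bp for WT-only and 345 bp for KO-only peaks, beside 505 and 791 bp for shared WT and shared KO peaks. The median fold was 3.61 and 3.41, beside 3.94 and 3.84. A wider peak more easily meets another by 1 bp, so the difference in width is in part built into the definition of sharing.

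WT-only peaks were most numerous in the third of the 4 parts, and KO-only peaks were spread much as all KO peaks were. Of the 21 WT-only peaks, 10 lay in the third part by length, 7 in the second, and 2 each in the first and the fourth. Of the 38 KO-only peaks, 12 lay in the first part, 13 in the second, 5 in the third and 8 in the fourth. All WT peaks numbered 20, 22, 19 and 9 over the 4 parts, and all KO peaks 25, 27, 13 and 15, and the difference in placing was not tested. Many lay close to a peak of the other list: 9 of the 21 WT-only and 12 of the 38 KO-only peaks were within 1 kb of one, and 9 and 8 were more than 10 kb from any.

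The stretch that most separated the lists lay in the third part. From 147321274 to 147490698, 169.4 kb, there was no KO peak, while the WT list had 5 peaks over 2944 bases, with folds from 3.22 to 4.09. Of these 5, 3 had a fold no lower than 3.69, the median of the pooled lists. One of them, from 147391058 to 147392384, was the widest WT-only peak of the gene (1327 bp, fold 4.09). The stretch just before it, from 147196831 to 147320742, also lacked KO peaks and held 2 WT peaks, of folds 3.36 and 3.69. MIR548F4 lies in the 169.4 kb stretch, 12936 bp from the nearest WT peak and 56743 bp from the nearest KO peak. In the opposite direction, the WT list had no peak from 146241138 to 146376715, 135.6 kb, where KO had 2 peaks of folds 3.20 and 3.82. The most KO-only peaks between neighbouring WT peaks were 6 between 146759171 and 146795122, with folds from 2.13 to 3.97, directly beyond the strongest WT peak. The widest KO-only peak measured 703 bp (146802015 to 146802717, fold 3.51) and lay 649 bp from a WT peak.

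Where a single WT peak met a single KO peak at CNTNAP2, the KO peak had the lower fold in most pairs. There were 36 such pairs at CNTNAP2. KO was wider in 23 and narrower in 13 (63.9% wider), with a median ratio of widths of 1.20. Over all 21839 such pairs KO was wider in 69.6%, with a median of 1.22, so wider KO peaks were no more frequent here. The KO fold was lower in 23 of the 36 pairs (63.9%), against 48.5% of all pairs, and the median ratio of KO to WT fold was 0.935, against 1.01. Neither difference was tested, and with 36 pairs the share is uncertain. The ratios ran from 0.554 to 1.60, and the middle of their range, from the lower to the upper quartile, was 0.834 to 1.05.

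The ratio of folds in these pairs also varied along the gene. In the first part it had a median of 0.993 over 11 pairs, with 6 lower in KO. In the second the median was 0.838 over 13 pairs, with 10 lower. In the third it was 0.857 over 7 pairs, with 6 lower, and in the fourth it was 1.08 over 5 pairs, with 1 lower. The largest drop was at 147113352 to 147115391, with a fold of 5.40 in WT and 2.99 in KO at widths of 2040 and 1883 bp. The largest rise was at the 7.53 peak named above. At 147542285 to 147543188, one of the tied third-strongest WT peaks, the fold was 5.66 in WT and 5.05 in KO. As the pairs are few and neighbours within a cluster share their surroundings, these medians describe the 2 lists only.

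**Figure D3:**
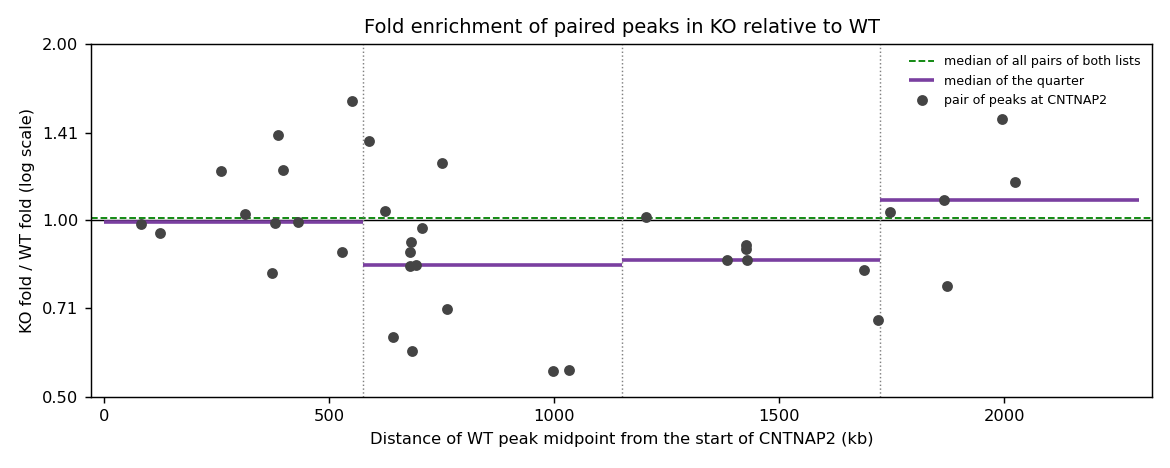
Ratio of KO to WT fold enrichment (log scale) for the 36 pairs of peaks that meet only each other, against the distance of the WT peak from the start of CNTNAP2 in kb, with dotted lines between the 4 equal parts, purple lines at the median of each part and a dashed line at the median of all pairs, 1.01. The medians are 0.993, 0.838, 0.857 and 1.08 from the 5' to the 3' part.

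CNTNAP2 was among the more densely marked long genes without being at the top of them. Of 314 protein-coding genes of at least 500 kb in RefSeq, CNTNAP2 had the 37th highest WT density, 3.04 peaks per 100 kb, and the 43rd highest KO density, 3.47 peaks per 100 kb on the RefSeq length. The medians of these genes were 0.893 and 1.20 peaks per 100 kb. By number of peaks it was the third in WT and shared the fifth place in KO with GPC6, which also had 80. Of the 298 such genes with a peak, 87.6% had more KO than WT covered bases, as CNTNAP2 had in the full lists. Among the 49 with at least 20 WT peaks, the ratio of KO to WT peaks had a median of 1.17 (quartiles 1.02 and 1.36). Of these, 22 had a lower ratio than the 1.14 of CNTNAP2. This set was chosen by WT peaks, the denominator of the ratio, and so leaves out genes with few WT and many KO peaks. It therefore cannot show whether the ratio at CNTNAP2 is usual for long genes.

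The 5 genes whose densities in the 2 lists were nearest to those of CNTNAP2, by Euclidean distance over these 2 values, were BBS9, THSD4, ST6GALNAC3, DACH2 and EPHA6. BBS9, a gene of the BBSome of cilia, had 15 WT and 17 KO peaks, 2.96 and 3.36 per 100 kb. THSD4 had 22 and 24 peaks, ST6GALNAC3, a sialyltransferase gene, 18 and 19, and DACH2 on chromosome X 22 and 23. EPHA6, which encodes an ephrin receptor, had 26 and 32. The 5 are shorter than CNTNAP2, from 506 kb (BBS9) to 947 kb (EPHA6).

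**Figure D4:**
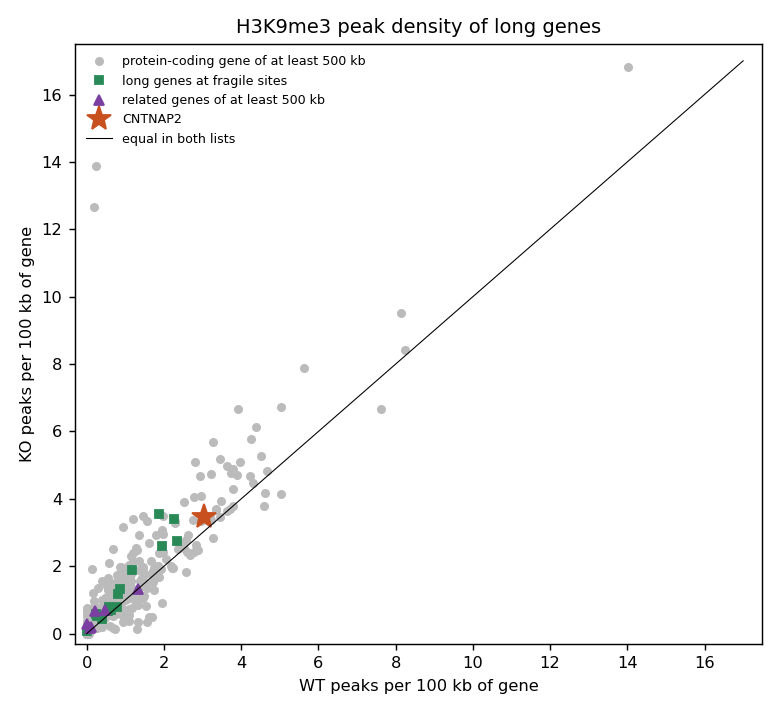
KO against WT peaks per 100 kb of gene for 314 protein-coding genes of at least 500 kb (grey), with long genes at fragile sites (green squares), related genes of at least 500 kb (purple triangles) and CNTNAP2 (orange star), and a line of equal density. CNTNAP2 lies at 3.04 in WT and 3.47 in KO, above the related genes in both lists.

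The other members of the gene's own family were nearly free of peaks. Of CNTNAP1, CNTNAP3, CNTNAP3B, CNTNAP4 and CNTNAP5, which encode the other contactin-associated proteins, 1 had a peak. CNTNAP5, 896 kb long, had 2 WT and 6 KO peaks over 659 and 5038 bases, 0.223 and 0.670 per 100 kb. The remaining 4 had none in either list. They are shorter, at most 283 kb. How often genes of such lengths hold a peak was not computed, so the count may reflect length alone. Of protein-coding genes of at least 500 kb, to which CNTNAP5 belongs, 89.5% held a peak in WT and 94.6% in KO.

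Neurexins and contactins, the cell adhesion relatives and partners of this family, had few peaks too. Of 9 genes, 5 were marked in WT and 6 in KO, and each of the 6 had more KO bases. Among protein-coding genes of at least 500 kb, 89.5% were marked in WT and 94.6% in KO. Of such genes with a peak, 87.6% had more KO bases, so that direction is the usual one. NRXN3 had 8 WT and 12 KO peaks, CNTN1 had 5 and 8, CNTN3 had 3 and 4, CNTN4 had 1 and 2, and CNTN5 had 0 and 4. CNTN2, which encodes the axonal contactin that binds CASPR2, had no peak in either list, and the same held for NRXN2 and CNTN6. CNTN2, NRXN2 and CNTN6 are 35.3, 117 and 311 kb long, shorter than each of the 6 genes with a peak. The densest of the 9, CNTN1, had 1.32 WT and 2.11 KO peaks per 100 kb, below CNTNAP2.

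Of 11 genes for proteins of the same axonal domain or its scaffolds and for regulators of CNTNAP2, 2 were marked in WT and 3 in KO. The Kv1 channel genes KCNA1, KCNA2 and KCNA4 had none, nor had KCNAB2, EPB41L3, LGI1, DLG4 and MPDZ. These genes without a peak are 7.30 kb (KCNA4) to 238 kb (EPB41L3) long. The 3 with a peak are longer, from 269 kb (ADAM22) to 607 kb (FOXP2). How often genes of such lengths hold a peak was not computed, so the counts may reflect length alone. FOXP2, which encodes a transcription factor known to bind and repress CNTNAP2, had 8 peaks in each list over 5218 WT and 5147 KO bases. ADAM22, the receptor gene for LGI1, had 3 and 4 peaks, and TCF4, another transcription factor gene, had 0 and 2. FOXP2 and ADAM22 lie on chromosome 7 as CNTNAP2 does.

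Very long genes known for common fragile sites held more peaks than the relatives of CNTNAP2 did. All 15 were marked in KO and 14 in WT, with 203 WT and 300 KO peaks in all, and each of the 15 had more KO bases. Among all 314 long genes, 94.6% were marked in KO and 89.5% in WT, and 87.6% of those with a peak had more KO bases, so the counts of this list are near those of long genes at large. FHIT had 34 WT and 51 KO peaks, AUTS2 on chromosome 7 28 and 33, PARD3B 21 and 28, MACROD2 18 and 27, CTNNA3 15 and 22, and WWOX 13 and 21. None of the 15 reached the WT density of CNTNAP2. Genes of about the same length differed in their number of peaks: PTPRD, 2299 kb long and so nearly as long as CNTNAP2, had 0 WT and 2 KO peaks, and DMD, 2220 kb long, had 9 and 10.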

How the data were processed

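H3K9me3 was measured by ChIP-seq in 293T cells. The submitters' processing notes name HISAT2 and hg38. Which program called peaks, how inputs were used and whether the 3 replicates were pooled is not given in the sources used here. As deposited by the authors, there is 1 annotated peak list per genotype, with a fold enrichment (a ratio) and a q-value for each peak, per the file headers. These are the authors' values and were used to describe and filter peaks, with some cut-offs set at the median of the pooled lists. Folds were also compared between the lists, as medians and as KO to WT ratios in pairs of peaks. The background of the folds is not defined, so these comparisons describe the lists only.

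Positions were read as counted from 1, since the lowest start is 1. Overlaps, covered bases, bins of 100 kb and densities were computed with Python 3.11.15, pandas 2.3.3 and scipy 1.17.1, and the functions were tested on simulated intervals. RefSeq gene bodies (GRCh38.p14) contained the same 70 and 80 peaks as the deposited span of CNTNAP2. Peaks were shared where they overlapped by at least 1 bp. No test was run, because each genotype has 1 list. Intervals are 95% Wilson intervals for shares and exact binomial intervals for ratios of counts, and cover counting only.

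The members and gene lists were chosen with earlier results of these data known. Peaks named are the 3 of highest fold and the 3 widest in each list, the widest of each one-list kind, the one nearest the transcript start, the longest gap, and the 3 bins with the largest difference each way. Genes named are the neighbours, the genes inside, members with a peak of 3 related lists, long fragile-site genes with at least 20 peaks in a list, and the 5 nearest in density; a few genes that this rule names are not reported here. The division into 4 equal parts, the clusters, the pairs, the longest one-list stretches, CUL1, EZH2, GPC6, PTPRD, DMD and the genes without a peak were chosen after seeing the data. Alternatives changed the peak filter, the list length, the overlap, the gene assignment, merging and the bin size.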

Additional observations from a re-analysis of the deposited data

How the results depend on the processing

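Of 35 alternatives to the 6 values planned, 23 left the value within its counting interval and on its side of 1. Covered bases have no counting interval of their own, so that of the peak ratio was scaled to the ratio of bases. The place among long genes was given a Wilson interval over the 314 genes. The alternatives that took peaks by the authors' gene name used the same peaks and could not differ. The counting intervals are wide, so this tally is a weak measure of stability. The ratio of KO to WT peaks at CNTNAP2, 1.14, fell to 0.786 among peaks with a fold no lower than the pooled median. It fell to 0.786 in lists of equal length by q-value and to 0.771 in lists of equal length by fold. The ratio of bases, 1.22, fell to 1.00, 0.992 and 0.885 in the same order. Lists of equal length hold fewer KO peaks by construction; for the filter on fold the cause was not tested. The share of WT peaks with a KO counterpart was 54.8% at the higher fold, 55.7% at equal length by fold, 38.6% when 50% of both peaks had to overlap and 82.9% within 1 kb, and that of KO peaks was 33.8% and 67.5% under the last 2. Bins with more KO bases, 52.4% in the main setting, made up 28.6% at equal length by fold, 33.3% at equal length by q-value and 47.1% at the higher fold. They made up 64.7% at or below the pooled median q-value, 60.0% in bins of 50 kb and 55.6% in bins of 250 kb. The values of 33.3% and 47.1% count among the 23, as they lie within the counting interval (32.4 to 71.7). Alternatives for the 4 parts were chosen after seeing the data, and the base ratio in the second of the 4 parts was 0.926 at the higher fold and 0.844 and 0.729 at equal length by q-value and by fold. No paired analysis was possible because the lists carry no replicate, and for the same reason no replicate could be left out.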
